A study of Homo sapiens with 7 samples.

Results

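The core spliceosomal snRNP protein genes examined here are 37 of the 20072 gene symbols in the deposited table, taken by symbol. The rule used no measured value, but the members were chosen with earlier results of these data known. They encode the Sm ring proteins, the proteins specific to the U1, U2, U4/U6.U5 and minor U11/U12 particles, the SF3A, SF3B and U2AF subunits, and PRPF19; the LSM genes are not among them. A total of 36 of the 37 entered the gene-wise test, which covered 14305 genes with a mean of at least 1 RPKM (reads scaled by exon length and library size) in at least 1 parameter. Each of these 36 was above that level in all 7 libraries, so none of them entered through a single parameter. The remaining gene, SNRPN, was listed at 0 in 7 of 7 libraries, and so was SNURF, whose exons cover 55.4% of the canonical SNRPN mRNA; why both were listed at 0 was not tested.

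All libraries came from HCT116, an established human colorectal carcinoma cell line, in exponential growth in a serum-free medium, with no genotype contrast between the groups. Transcription rate (TR) was read from 2 GRO-seq libraries, in which engaged polymerases extend and label nascent RNA in isolated nuclei. mRNA abundance (RA) was read from 3 RNA-seq libraries, and translation activity (TA) from 2 libraries of mRNA in polysomes, the ribosome-loaded fraction of a sucrose gradient, prepared after brief cycloheximide treatment, a step the methods give for the TA libraries alone. The groups therefore differ in this drug and in their RNA preparation as well as in the parameter, and these cannot be told apart. Library sizes worked out from the values ran from 3391897 to 30805391 reads, with both TR libraries the smallest. Without molecular identifiers, a read count gives counting error and nothing more. The paper calls the libraries biological replicates, while the labels do not name separate cultures, so p-values measure the spread between these libraries, part of which may be technical. As bulk libraries of a single line, they cannot tell a shift in all cells from a shift in some of them. Of 10 colorectal epithelial markers, 6 reached 1 RPKM in RA, with KRT19 the highest at 977.5 RPKM, while CDX1, VIL1, LGALS4 and CEACAM5 were at or near 0. Summed RA of that list ran from 1909 to 2558 RPKM over the 3 libraries, against 0.476 to 0.508 RPKM for 5 blood cell markers, 10.1 to 13.9 RPKM for 5 fibroblast markers and 0.127 to 0.225 RPKM for 3 endothelial markers.

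The spliceosome removes introns from pre-mRNA and is built from small nuclear ribonucleoproteins (snRNPs). Each is a small nuclear RNA with a set of specific proteins and, in most, a shared ring of Sm proteins. U1 recognises the 5′ splice site, U2 with SF3A and SF3B binds the branch site next to the polypyrimidine tract bound by U2AF, and the U4/U6.U5 tri-snRNP brings in PRPF8, SNRNP200 and EFTUD2, which shape and remodel the catalytic centre. The Sm proteins are small and are loaded onto the RNA in the cytoplasm by the SMN complex, whereas several of the specific factors are very large proteins.

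Messages of these genes were more abundant, relative to their transcription, than those of most genes. The members' median percentile among the genes tested was 79.8 and 80.7 in the TR libraries, 86.8 to 90.0 in the RA libraries and 91.5 to 91.6 in the TA libraries. Within a library the members' median RPKM was 2.22 to 2.26 times that of all genes tested in TR, 4.77 to 6.27 times in RA and 10.7 to 11.2 times in TA. The lowest count behind any member's value was 58 reads, for SNRPG in TR replicate 1.

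**Figure D1:**
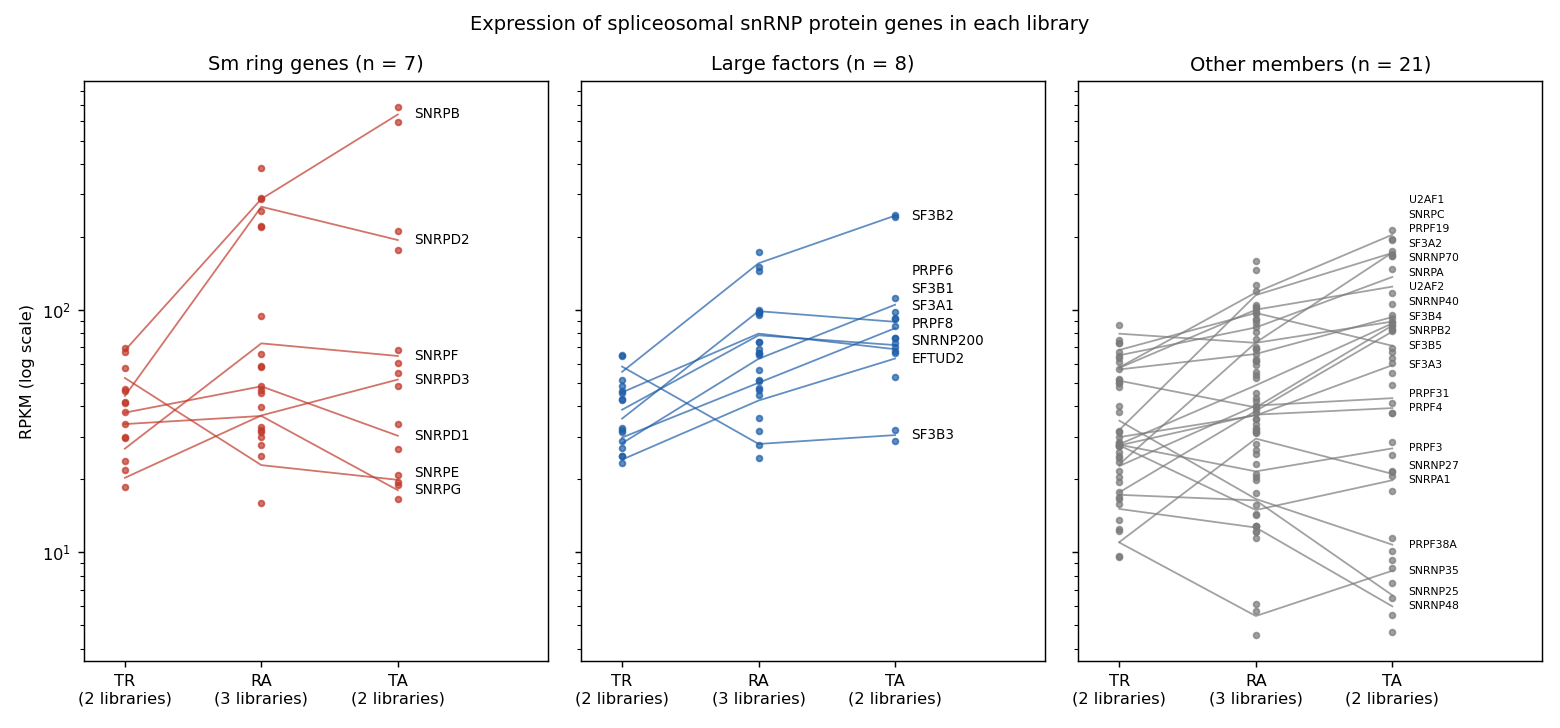
RPKM (log scale) of the 36 tested members in each TR, RA and TA library (points), with lines joining the means of the groups, in 3 panels for the 7 Sm ring genes, the 8 large factors and the 21 other members; symbols stand in the order of mean TA. The Sm ring genes lie close together in TR and reach from SNRPG to SNRPB in TA, and SF3B3 is the large factor at the bottom of RA and TA.

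The first comparison asked how mRNA abundance stood against transcription, as the stability index log2(RA/TR). In limma, 19 of the 36 members were higher in RA than TR, 5 were lower and 12 did not pass an adjusted p of 0.05. Of all genes tested, 19.2% were called higher and 48.0% lower. Unlike the members, some of these genes reached 1 RPKM in only part of the parameters. Among the 10825 genes with a mean of at least 1 RPKM in each parameter, 2632 were higher and 3656 lower. In that fit 18 members were higher and 5 lower. The members' median stability index was 0.75 on the log2 scale, against -0.58 for all genes, and 31 of 36 lay above that median of all genes. In RPKM, the RA libraries lay wholly above the TR libraries for 22 members and wholly below for 7, against 24.3% and 54.9% of all genes tested. Over the 6 pairs of a TR and an RA library, the members' median exceeded that of all genes by 1.06 to 1.54. When the log2 values of every library were shifted to a median of 0, the index of the median gene moved by 0.67, and 26 members were called higher and 0 lower, against 35.4% and 33.7% of all genes. All 19 higher calls remained, and the 5 lower calls were lost, with 0 members lower at an unadjusted p under 0.05, so a lower value here is relative to the deposited scale. Leaving out TR replicate 2 reduced the calls to 12 higher and 2 lower, and 14 of the 24 calls stood in each of the 7 fits without 1 library.

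The second comparison asked how polysomal mRNA stood against total mRNA, as the translation index log2(TA/RA), and it uses the same RA libraries as the first. Here 10 members were higher in TA than in RA, 4 were lower and 22 did not pass. Of all genes tested, 6.66% were called higher and 29.2% lower. Among the 10825 genes with a mean of at least 1 RPKM in each parameter, 960 were higher and 3224 lower. In that fit 10 members were higher and 4 lower. The median translation index of the members was 0.32 on the log2 scale against -0.37 for all genes, with 28 of 36 above the median of all genes. TA libraries lay wholly above RA for 17 members and wholly below for 9, against 14.4% and 43.8% of all genes. With each library centred, which moved the median of all genes by 0.50, 21 members were called higher and 0 lower, against 19.0% and 9.81% of all genes, and 2 were lower at an unadjusted p under 0.05. All 10 higher calls remained. These calls rest on few libraries, and in each fit named next the higher and lower calls over all genes tested fell as well. Without TA replicate 1 they were 1 higher and 1 lower, without RA replicate 3 they were 5 and 2, and without either TR replicate they were 9 and 2. Only the calls of SNRPC and SNRNP48 stood in each of the 7 fits without 1 library.

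**Figure D2:**
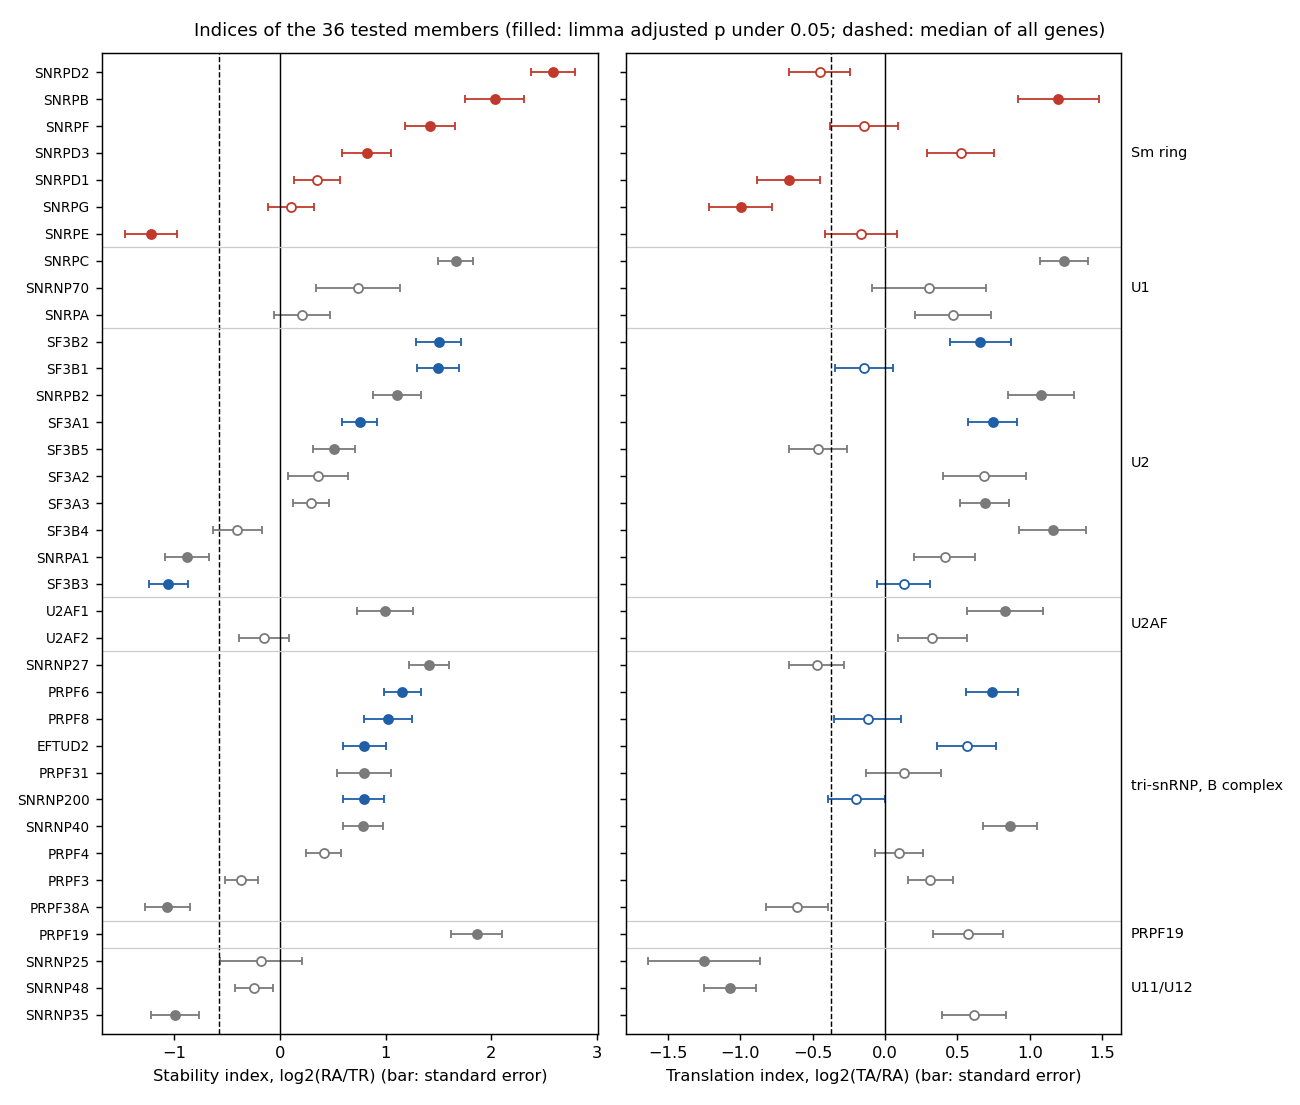
Stability index (left) and translation index (right), both on a log2 scale, of the 36 tested members ordered by role; points are limma estimates with bars of 1 standard error, filled where the adjusted p was under 0.05, in red for Sm ring genes, blue for large factors and grey for other members. The dashed lines mark the medians of all genes, -0.58 and -0.37, and 31 and 28 members lie to the right of them.

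The Sm ring is formed by 7 proteins that close around most spliceosomal RNAs, U6 not among them. The genes of the ring are spread over the genome, with SNRPB at chr20:2442280-2451499 on the minus strand and SNRPD2 at chr19:46190718-46195827 on the minus strand of GRCh37, the build of the files. Stability indices of the ring ran from -1.22 to 2.58, with 4 members higher in RA than TR, 1 lower and 2 not past the threshold. Translation indices ran from -0.9996 to 1.20, with 1 higher, 2 lower and 4 not past the threshold. Of all genes tested, 19.2% were called higher and 48.0% lower in RA than TR, and 6.66% and 29.2% in TA than RA. The share of Sm genes lower in TA was thus near that of all genes. With each library centred, 0 Sm genes were lower in TA than RA.

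SNRPB encodes SmB and its longer splice form, and held the highest Sm level in 6 of the 7 libraries. Its RPKM was 69.3 and 66.7 in TR, 385, 219.8 and 256 in RA, and 596 and 685 in TA. The 3 sets of libraries did not overlap, and each step was upward. The stability index was 2.03 ± 0.28 (SE; adjusted p = 0.00031), a 4.10-fold difference, and the translation index was 1.20 ± 0.28 (adjusted p = 0.0146). The first call stood in all 7 fits without 1 library, and the second was lost without RA replicate 3 or either TA replicate (adjusted p up to 0.0733). On the same strand, 14.0% of the canonical SNRPB mRNA is shared with another gene model.

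SNRPD3, whose protein pairs with SmB before the ring closes, started at 18.7 and 21.9 RPKM in TR, the lowest of the ring in both libraries. It stood at 48.3, 31.8 and 29.9 RPKM in RA and at 48.4 and 54.7 RPKM in TA. RA lay wholly above TR, with a stability index of 0.82 ± 0.23 (SE; adjusted p = 0.0138) that was lost without TR replicate 1 or 2 (adjusted p up to 0.115). Every TA value was above every RA value by a small margin, and the translation index of 0.52 ± 0.23 did not pass (adjusted p = 0.114).

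SNRPD2 had the largest stability index of all 36 members. The RPKM of this SmD2 gene was 41.8 and 46.5 in TR, then 287, 289.9 and 223 in RA, and 177 and 211 in TA. All RA values lay far above both TR values, with an index of 2.58 ± 0.21 (SE; adjusted p = 1.5e-05), and the call stood in all 7 fits without 1 library. TA lay below RA without overlap, but its index of -0.45 ± 0.21 did not pass (adjusted p = 0.128). SNRPD1, the partner of SmD2, had 33.9 and 41.5 RPKM in TR and 58.4, 46.9 and 39.8 RPKM in RA. These overlapped, at 0.35 ± 0.22 (adjusted p = 0.185). In TA SNRPD1 stood at 26.7 and 33.8 RPKM, wholly below RA, and fell by 0.67 ± 0.22 on the log2 scale (adjusted p = 0.0445), a call that was lost in each fit without 1 library (adjusted p from 0.051 to 0.245).

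SmE, SmF and SmG form a further subcomplex of the ring, and their genes gave 3 different sets of calls. SNRPE was at 47.2 and 57.5 RPKM in TR, 27.6, 24.9 and 16.0 RPKM in RA, and 18.9 and 20.8 RPKM in TA. It was the only Sm gene lower in RA than TR, by a stability index of -1.22 ± 0.25 (SE; adjusted p = 0.0027), with a borderline adjusted p of 0.0501 without TR replicate 2, and RA and TA overlapped (translation index -0.16 ± 0.25, adjusted p = 0.635). SNRPF had 29.7 and 23.7 RPKM in TR, 94.1, 65.5 and 58.6 RPKM in RA, and 60.6 and 68.4 RPKM in TA. RA of SNRPF was wholly above TR at 1.42 ± 0.23 (adjusted p = 0.00087), and TA fell inside the range of RA (-0.14 ± 0.23, adjusted p = 0.659). SNRPG was at 29.5 and 38.0 RPKM in TR, 45.2, 31.4 and 32.9 RPKM in RA, and 16.5 and 19.5 RPKM in TA. TR and RA of SNRPG overlapped (0.10 ± 0.22, adjusted p = 0.694), whereas TA was wholly below RA with an index of -0.9996 ± 0.22 (adjusted p = 0.0114), a call lost without TA replicate 1 (adjusted p = 0.0796).

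The U1-specific proteins are the stem-loop binding proteins encoded by SNRNP70 and SNRPA, and U1-C, encoded by SNRPC, which contacts the 5′ splice site duplex. SNRPC was at 21.6 and 24.5 RPKM in TR, 81.0, 69.0 and 70.1 RPKM in RA, and 175 and 169.8 RPKM in TA. No libraries of different groups overlapped, with indices of 1.67 ± 0.17 (SE; adjusted p = 5.0e-05) and 1.24 ± 0.17 (adjusted p = 0.00337). The translation index of SNRPC was the highest of the 36 members. SNRNP70 and SNRPA passed in neither comparison, with stability indices of 0.74 ± 0.40 and 0.21 ± 0.26 and translation indices of 0.30 ± 0.40 and 0.47 ± 0.26. Their TA replicates stood far apart, at 82.4 and 167 RPKM for SNRNP70 and 69.6 and 117 RPKM for SNRPA.

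The U2 proteins include the RNA-binding pair SNRPA1 and SNRPB2 and the SF3A and SF3B subunits that hold the branch site. Of 10 genes, 5 were higher and 2 lower in RA than TR, against 19.2% and 48.0% of all genes tested, and 5 were higher and 0 lower (1 at an unadjusted p under 0.05) in TA than RA, against 6.66% and 29.2%. Their median translation index was 0.67, against -0.37 for all genes.

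SNRPB2 had 15.8 and 19.5 RPKM in TR, 40.1, 43.3 and 31.5 RPKM in RA, and 95.6 and 67.2 RPKM in TA. It was higher at each step without overlap, by 1.11 ± 0.23 (SE; adjusted p = 0.0027) and 1.08 ± 0.23 (adjusted p = 0.01), the second lost without TA replicate 1 (adjusted p = 0.0764). SNRPA1, whose protein binds U2 RNA together with that of SNRPB2, moved the other way at the first step. It had 23.7 and 31.5 RPKM in TR and 17.5, 12.9 and 14.4 RPKM in RA, wholly lower at -0.88 ± 0.21 (adjusted p = 0.00617, or 0.0686 without TR replicate 2). Its TA values of 18.0 and 21.6 RPKM lay above RA, at 0.41 ± 0.21, which did not pass (adjusted p = 0.161).

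Among the large subunits, SF3B1 carries the HEAT-repeat fold that clasps the branch site helix and is a known site of cancer mutations. SF3B1 was at 42.4 and 28.8 RPKM in TR, 100.1, 97.7 and 98.5 RPKM in RA, and 85.8 and 92.8 RPKM in TA. RA was higher than TR (1.50 ± 0.20 SE, adjusted p = 0.00026), and TA was slightly below RA without overlap but not past the threshold (-0.15 ± 0.20, adjusted p = 0.596). SF3B2, its partner in the complex, was at 64.8 and 46.2 RPKM in TR, 173, 145 and 150.1 RPKM in RA, and 248 and 242 RPKM in TA. It had the highest level of the large factors in RA and TA. Its stability index was 1.50 ± 0.21 (adjusted p = 0.00036), and its translation index was 0.66 ± 0.21 (adjusted p = 0.0434), a call lost without RA replicate 2, RA replicate 3 or either TA replicate (adjusted p up to 0.165).

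SF3B3 was the large factor that went the other way. It stood at 51.6 and 65.1 RPKM in TR, 31.7, 24.5 and 27.7 RPKM in RA, and 28.9 and 32.0 RPKM in TA. RA was wholly below TR (-1.06 ± 0.19 SE, adjusted p = 0.00122), in all 7 fits without 1 library, and TA overlapped RA (0.13 ± 0.19, adjusted p = 0.623). SF3A1, the scaffold of SF3A, was at 32.4 and 27.0 RPKM in TR, 47.7, 50.8 and 51.6 RPKM in RA, and 91.3 and 76.7 RPKM in TA. It was higher at both steps, by 0.75 ± 0.17 (adjusted p = 0.00445) and 0.74 ± 0.17 (adjusted p = 0.0134), and the second call was lost without TA replicate 1 (adjusted p = 0.0946).

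The smaller SF3 subunits followed no single pattern. SF3B4 had 50.1 and 51.9 RPKM in TR, 52.5, 30.9 and 35.4 RPKM in RA, and 85.9 and 86.4 RPKM in TA. TR and RA overlapped (-0.40 ± 0.23 SE, adjusted p = 0.158), and TA was wholly above RA by 1.16 ± 0.23 (adjusted p = 0.00875, or 0.0527 without TA replicate 1). SF3A3 was higher in TA than RA by 0.69 ± 0.17 (adjusted p = 0.0173), which did not stand without RA replicate 3 or TA replicate 1 (adjusted p up to 0.112). SF3B5 was higher in RA than TR by 0.51 ± 0.20 (adjusted p = 0.0482), a call that stood in 2 of the 7 fits without 1 library, and SF3A2 passed in neither comparison. Of the U2AF pair, which reads the 3′ end of the intron, U2AF1 was higher in RA than TR by 0.99 ± 0.26 (adjusted p = 0.0103, or 0.107 without TR replicate 2) and in TA than RA by 0.83 ± 0.26 (adjusted p = 0.0415), the latter standing in 1 of 7 such fits. The exons of U2AF1 lie wholly under a second gene model that the annotation marks as an artifact. U2AF2 passed in neither, at -0.15 ± 0.24 and 0.33 ± 0.24.

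The tri-snRNP and B complex group held 10 genes, of which 7 were higher and 1 lower in RA than TR, against 19.2% and 48.0% of all genes tested. In TA against RA, 2 were higher and 0 lower (2 at an unadjusted p under 0.05), against 6.66% and 29.2% of all genes. PRPF8, the protein that cradles the catalytic RNA core, was at 45.6 and 31.8 RPKM in TR, 95.6, 66.5 and 73.6 RPKM in RA, and 66.6 and 76.6 RPKM in TA. SNRNP200, the helicase that unwinds U4 from U6, was at 48.6 and 42.7 RPKM in TR, 96.7, 68.9 and 73.8 RPKM in RA, and 70.1 and 67.5 RPKM in TA. For both genes RA lay wholly above TR, and TA overlapped RA. Their stability indices were 1.02 ± 0.23 (SE; adjusted p = 0.00457) for PRPF8 and 0.79 ± 0.19 (adjusted p = 0.00717) for SNRNP200, each just past 0.05 without TR replicate 2 (adjusted p = 0.0575 and 0.0608). Their translation indices were -0.12 ± 0.23 and -0.20 ± 0.19, neither past the threshold.

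EFTUD2 encodes the GTPase of the U5 particle, and PRPF6 the protein that bridges U5 and U4/U6. EFTUD2 was at 25.0 and 23.2 RPKM in TR, 46.6, 44.5 and 35.6 RPKM in RA, and 73.3 and 52.6 RPKM in TA. PRPF6 was at 31.3 and 25.0 RPKM in TR, 66.4, 65.3 and 56.7 RPKM in RA, and 112 and 97.7 RPKM in TA. No libraries of different groups overlapped for either gene. EFTUD2 was higher in RA than TR by 0.80 ± 0.20 (SE; adjusted p = 0.00863, or 0.0713 without TR replicate 2), and its translation index of 0.56 ± 0.20 did not pass (adjusted p = 0.0627). PRPF6 was higher at both steps, by 1.16 ± 0.18 (adjusted p = 0.0006) and 0.74 ± 0.18 (adjusted p = 0.0167), the second lost without RA replicate 3 or TA replicate 1 (adjusted p up to 0.106).

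Of the smaller proteins of this group, SNRNP27 was at 12.5 and 9.51 RPKM in TR, 26.4, 33.8 and 28.0 RPKM in RA, and 20.7 and 21.4 RPKM in TA. Its RA was wholly above TR (1.41 ± 0.19 SE, adjusted p = 0.00028) and its TA wholly below RA but not past the threshold (-0.47 ± 0.19, adjusted p = 0.0863); 16.6% of its mRNA is shared with MXD1 on the same strand. PRPF38A, a protein of the B complex, was at 29.8 and 40.0 RPKM in TR, 19.9, 15.6 and 14.2 RPKM in RA, and 11.4 and 10.1 RPKM in TA. RA of PRPF38A lay wholly below TR and TA wholly below RA, past the threshold for the first step (-1.07 ± 0.21, adjusted p = 0.00245) and not for the second (-0.61 ± 0.21, adjusted p = 0.0562). The WD-repeat protein gene SNRNP40 was higher at both steps, by 0.79 ± 0.19 (adjusted p = 0.00616) and 0.86 ± 0.19 (adjusted p = 0.0117), the second lost without either TA replicate (adjusted p up to 0.0609). PRPF31 was higher in RA than TR by 0.79 ± 0.26 (adjusted p = 0.0245), lost without either TR replicate (adjusted p up to 0.182), and 32.1% of its mRNA lies opposite PRPF31-AS1. PRPF3 and PRPF4 passed in neither comparison.

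PRPF19, the ubiquitin ligase at the centre of the complex that joins at activation, was at 38.0 and 25.9 RPKM in TR, 127, 120.1 and 98.1 RPKM in RA, and 196 and 148 RPKM in TA. RA exceeded TR by 1.86 ± 0.24 on the log2 scale (SE; adjusted p = 0.00021) in every fit without 1 library. TA lay wholly above RA, with an index of 0.57 ± 0.24 that did not pass (adjusted p = 0.0954).

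The minor spliceosome removes a rare class of introns, and its 3 U11/U12 genes were among the lowest members in RA. SNRNP35 had 9.67 and 12.2 RPKM in TR, 6.10, 5.70 and 4.55 RPKM in RA, and 9.32 and 7.45 RPKM in TA. SNRNP25 had 17.6 and 16.8 RPKM in TR, 25.5, 11.4 and 12.1 RPKM in RA, and 4.69 and 8.58 RPKM in TA. SNRNP48 had 16.5 and 13.6 RPKM in TR, 12.8, 12.2 and 12.9 RPKM in RA, and 6.46 and 5.49 RPKM in TA. For both SNRNP25 and SNRNP48, every TA value was below every RA value. SNRNP35 was lower in RA than TR (-0.995 ± 0.22 SE, adjusted p = 0.0046, or 0.0572 without TR replicate 2), and its TA lay above RA without passing (0.61 ± 0.22, adjusted p = 0.0646). SNRNP25 and SNRNP48 did not differ past the threshold between TR and RA, and were lower in TA than RA by -1.25 ± 0.39 (adjusted p = 0.0383) and -1.07 ± 0.18 (adjusted p = 0.00504). The SNRNP48 call stood in all 7 fits without 1 library, and that of SNRNP25 in 3 of them.

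**Figure D3:**
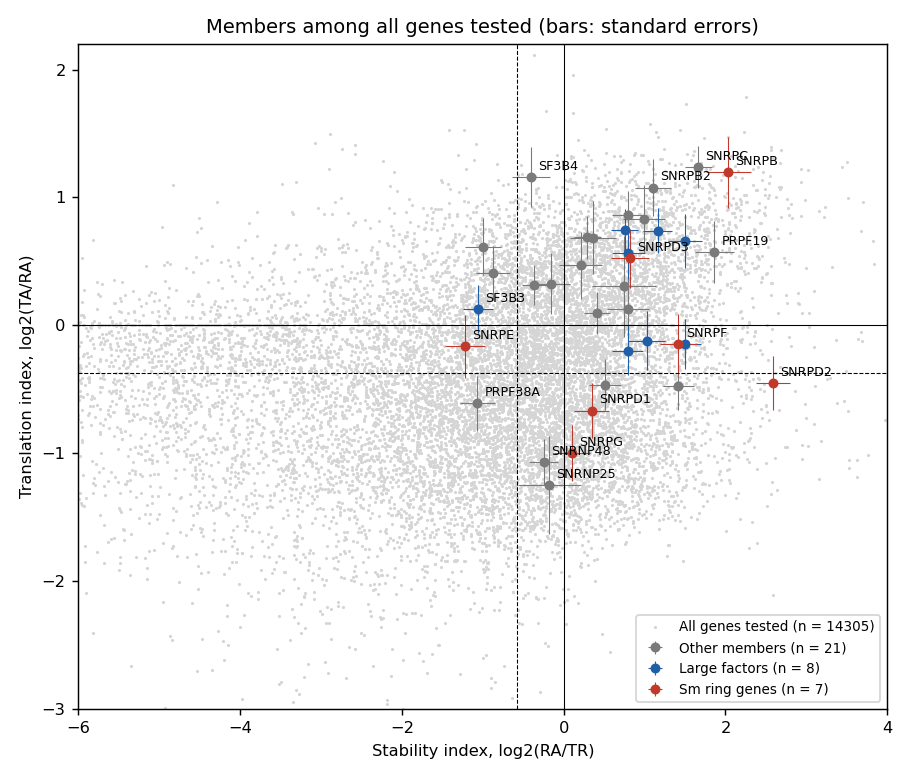
Stability index (horizontal) against translation index (vertical), both on a log2 scale, with bars of 1 standard error, for the 36 members over all 14305 genes tested (small points, of which 385 lie beyond the axes). The dashed lines are the medians of all genes, and both axes use the same RA libraries; SNRPB and SNRPC stand at the upper right, SNRNP25 and SNRNP48 at the bottom, and SNRPE, SF3B3, PRPF38A and SNRNP35 at the left.

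The small Sm proteins were then set against the large factors, PRPF8, SNRNP200, SF3B1, SF3B3, EFTUD2, PRPF6, SF3B2 and SF3A1. The 7 Sm genes tested have 76 to 231 codons (median 118) and the 8 large factors 793 to 2335 (median 1094). All 8 large factors passed the threshold between RA and TR, 7 of them higher, against 5 of 7 Sm genes, 4 of them higher. Between TA and RA, 3 large factors were higher and 0 lower (0 lower also at an unadjusted p under 0.05), against 1 higher and 2 lower among the Sm genes. Of all genes tested, 19.2% were called higher and 48.0% lower in RA than TR, and 6.66% and 29.2% in TA than RA. With each library centred, 2 Sm genes and 5 large factors were higher in TA than RA, and 0 of either class were lower. No test of the difference between the classes was made, since genes of a class are not replicates.

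The median stability index was 0.82 for the Sm genes and 0.91 for the large factors, a difference of -0.09 that ran from -0.61 to 0.34 over the 6 pairs of libraries and so has no fixed sign. It turned positive, at 0.18, without TR replicate 2. The median translation index was -0.16 for the Sm genes and 0.35 for the large factors, a difference of -0.51 that was negative in 6 of 6 pairs of libraries, from -0.87 to -0.16. In levels, the Sm median stood below the large-factor median in 6 of the 7 libraries, by -0.38 in TR replicate 1, by -0.70 to -0.45 in RA and by -0.71 and -0.49 in TA on the log2 scale, and above it by 0.45 in TR replicate 2.

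The Sm genes, whose proteins enter the ring in equal numbers, had unequal mRNA levels. The highest Sm gene exceeded the lowest by 3.05 to 3.71 times in TR, 11.6 to 16.0 times in RA and 35.2 to 36.0 times in TA. For the large factors these ratios were 2.60 to 2.80 in TR, 5.42 to 5.90 in RA and 7.58 to 8.58 in TA. Neither class overlapped between its groups of libraries, and the order from TR to RA to TA was the same in both. SNRPB was the highest Sm gene in all but RA replicate 2, where SNRPD2 was, while the lowest was SNRPD3 in TR, SNRPE in RA and SNRPG in TA. Over all 36 members the SD of log2 RPKM was 0.75 to 0.76 in TR, 1.19 to 1.24 in RA and 1.53 in TA, against 1.60 to 1.61, 2.74 to 2.77 and 2.98 to 2.99 for log2(RPKM + 0.1) of all genes tested. The widening from TR to RA to TA is therefore shared with the whole table.

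**Figure D4:**
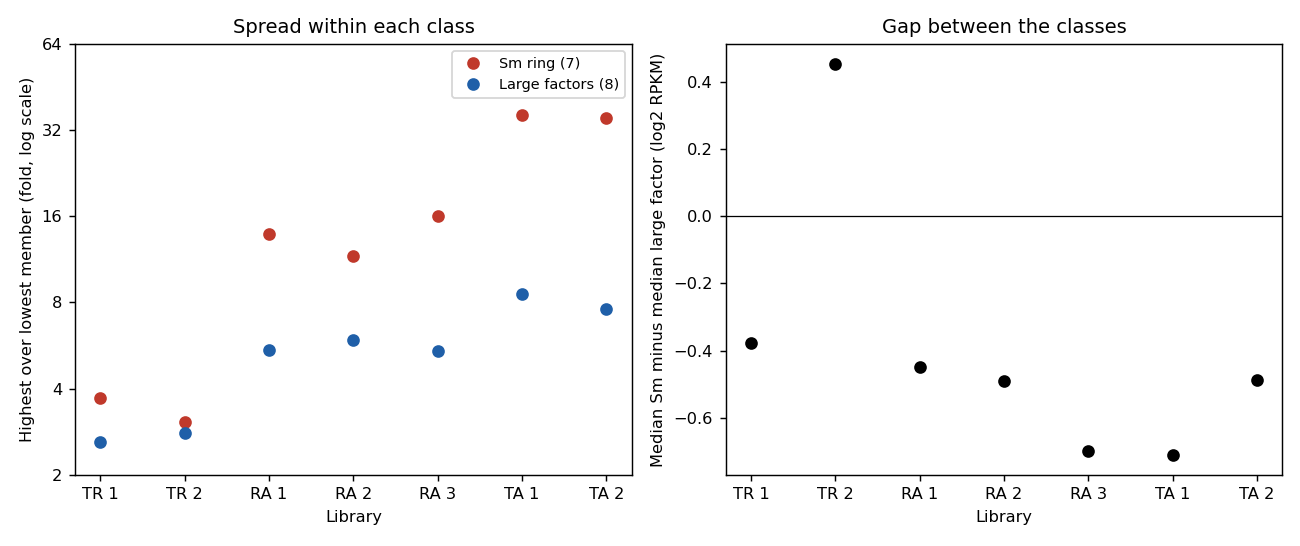
Left, highest over lowest RPKM (fold, log scale) among the 7 Sm ring genes (red) and the 8 large factors (blue) in each of the 7 libraries. Right, log2 of the Sm median over the large-factor median in each library; the left panel climbs from TR to RA to TA in both classes, to 36.0 and 8.58, and the right panel is below 0 in all libraries but TR replicate 2.

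Across members, the order of levels was closer between RA and TA (Spearman's rho 0.908 over 36 genes) than between TR and RA (0.598) or TR and TA (0.531). The translation index had a rho of -0.368 with the non-coding share of the canonical mRNA and 0.241 with the number of codons over the 36 genes, and -0.283 and -0.0355 over the 29 without the Sm genes. These are descriptions across genes, which share libraries and the scaling by exon length. For some genes the canonical mRNA also differs in length from the exons counted, in either direction. It has 4858 bases against 1628 counted for SNRPD1, 5233 against 2772 for PRPF38A and 1477 against 2438 for SNRNP35.

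The other genes of the pathway gave a yardstick. Of 52 further spliceosome genes tested, among them subunits of the PRPF19 complex, B complex proteins and U1-associated factors, 22 were higher and 11 lower in RA than TR, with a median stability index of 0.48, where 19.2% and 48.0% of all genes tested were called. In TA against RA, 15 were higher and 5 lower, with a median translation index of 0.28, where 6.66% and 29.2% of all genes were called. Without TR replicate 2 the genes higher in RA numbered 14. Those higher in TA numbered 4 without RA replicate 3 and 0 without TA replicate 1 (11 at an unadjusted p under 0.05), and those lower in TA numbered 2 without either TR replicate, RA replicate 3 or TA replicate 1. The highest and lowest in the first comparison were ZCRB1, a U11/U12 protein, at 1.65 ± 0.21 (SE; adjusted p = 0.00021) and LUC7L2, a U1-associated factor, at -2.14 ± 0.38 (adjusted p = 0.00127). In the second they were SNW1 at 1.02 ± 0.19 (adjusted p = 0.00682, or 0.0541 without TA replicate 1) and PRPF39 at -1.11 ± 0.19 (adjusted p = 0.00511). ZCRB1 was lower in TA than RA by -0.98 ± 0.21 (adjusted p = 0.0112, or 0.0838 without TA replicate 1). With each library centred, the counts were 40 higher and 4 lower in RA and 30 higher and 1 lower in TA.

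The factors that load the Sm ring were examined beside their cargo. Of 14 assembly genes tested, 4 were higher and 2 lower in RA than TR, with a median of -0.10, against 19.2% and 48.0% of all genes. In TA against RA, 2 were higher and 1 lower, with a median of 0.29, against 6.66% and 29.2% of all genes. Without TA replicate 1 both counts in TA were 0 (2 and 1 at an unadjusted p under 0.05). SMN1 and SMN2 were listed at 0 in all 7 libraries. Why they were so listed was not tested, and these values are not read as absence of expression. STRAP is a protein of the SMN complex, and CLNS1A brings Sm proteins to the methylosome. STRAP and CLNS1A were higher in RA than TR by 1.73 ± 0.19 (SE; adjusted p = 9.9e-05) and 1.57 ± 0.18 (adjusted p = 0.00012). STRAP was also the gene lower in TA than RA, by -0.67 ± 0.19 (adjusted p = 0.0306), a call that stood in 1 of the 7 fits without 1 library. GEMIN7, an SMN complex subunit, was lower by -2.56 ± 0.21 (adjusted p = 1.6e-05), from 74.0 ± 12.4 RPKM in TR (SD, n = 2) to 12.6 ± 2.4 RPKM in RA (SD, n = 3). GEMIN4, the other gene lower in RA, was so by -0.71 ± 0.22 (adjusted p = 0.0212), a call that stood in 3 of the 7 fits without 1 library. PRMT5, which methylates Sm proteins, was higher in TA than RA by 0.85 ± 0.19 (adjusted p = 0.0115, or 0.0837 without TA replicate 1). DDX20, the helicase of the SMN complex, was higher by 0.55 ± 0.17 (adjusted p = 0.0382), a call lost in each of the 7 fits (adjusted p up to 0.142).

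How reads of overlapping genes were counted is not known, since the counting mode and strand setting are not given in the sources used here. Values of such genes may be affected. Of the 36 members tested, 25 have no base of the canonical mRNA under an exon of another gene and 11 do. Of these 11, 4 do on the same strand and 8 on the opposite strand, with U2AF1 on both. Overlap with introns of other genes was not examined. The Sm and large-factor results named above rest mostly on genes with no such overlap, the exceptions being SNRPB, SNRPD3 (15.8%), PRPF8 (2.73%), EFTUD2 (5.13%) and SF3A1 (3.24%).

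Promoters of the members were read to show what sequence they share at their starts. RefSeq on GRCh38.p14 gave an entry of 250 bases before to 50 after the start for 33 of the 37 members, and a gene with several starts counted once if any of them held the word. The word CCGGAAG, the core of the ETS family motif, stood on either strand in 16 of 33 members (48.5%), against 16.5% of 15843 protein-coding genes and 20.6% of the 10564 tested. It stood in 4 of the 7 Sm genes with an entry, SNRPN among those 7, and in 4 of 7 large factors. CCAAT stood in 42.4% of members, against 42.1% of protein-coding genes and 42.5% of those tested. TATAAA stood in 1 of 33 members (3.03%), against 12.4% of protein-coding genes and 8.78% of those tested. A start of C followed by 4 bases of C or T resembles the terminal oligopyrimidine tract of ribosomal protein mRNAs. Such a start was present in 3 of 33 members (SNRPA, SNRPD2 and SF3A2), against 6.24% of protein-coding genes and 7.11% of those tested. A match is a description of letters and was not tied to TR here.

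The 120 bases before the start are shown for an Sm gene and large factors with the word and for an Sm gene and a large factor without it, 5′ to 3′ along the gene, with CCGGAAG or its complement CTTCCGG in capitals. The intervals on GRCh38.p14 are chr20:2470790-2470909 (minus strand) for SNRPB, chr2:96305547-96305666 (minus) for SNRNP200, chr11:66052244-66052363 (plus) for SF3B2, chr20:63981012-63981131 (plus) for PRPF6, chr12:95858832-95858951 (plus) for SNRPF and chr17:1684868-1684987 (minus) for PRPF8.
SNRPB: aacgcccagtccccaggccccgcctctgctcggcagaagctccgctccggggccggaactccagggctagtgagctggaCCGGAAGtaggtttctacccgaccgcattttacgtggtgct
SNRNP200: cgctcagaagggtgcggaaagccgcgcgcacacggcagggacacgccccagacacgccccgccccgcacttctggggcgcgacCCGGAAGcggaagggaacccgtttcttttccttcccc
SF3B2: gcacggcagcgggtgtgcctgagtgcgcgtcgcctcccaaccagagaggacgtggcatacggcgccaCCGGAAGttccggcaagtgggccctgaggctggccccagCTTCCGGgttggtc
PRPF6: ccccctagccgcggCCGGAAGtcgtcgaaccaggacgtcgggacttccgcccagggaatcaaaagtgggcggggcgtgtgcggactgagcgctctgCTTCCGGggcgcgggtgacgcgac
SNRPF: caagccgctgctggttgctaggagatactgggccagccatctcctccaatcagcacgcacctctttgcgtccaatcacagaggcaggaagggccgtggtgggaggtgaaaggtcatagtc
PRPF8: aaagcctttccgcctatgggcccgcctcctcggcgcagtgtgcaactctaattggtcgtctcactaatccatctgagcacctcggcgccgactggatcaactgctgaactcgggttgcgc
SF3B2 and PRPF6 each held the word on both strands, SNRPB and SNRNP200 held it once, and SNRPF and PRPF8 did not hold it in these windows. All of these 6 genes had a stability index past the threshold, so this choice of genes cannot show whether the word goes with the index. That relation was not tested.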

How the data were processed

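HCT116 libraries of GRO-seq (TR, 2), RNA-seq (RA, 3) and polysomal mRNA (TA, 2) were analysed from the RPKM table that the authors deposited. Per the study's methods and processing notes, the authors processed reads with CASAVA, mapped them to hg19 with TopHat at default settings, counted exonic reads with HTSeq-count and scaled the counts to RPKM; versions, annotation, counting mode and strand setting are not given in the sources used here. An RPKM is therefore a relative share and says nothing of molecules per cell.

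Groups and replicate numbers came from the sample titles. Library sizes were recovered from the RPKM steps, since all values above 0 (100%) were whole reads within 0.01 reads. Ratios were tested on log2(RPKM + 0.1) by limma 3.58.1 (R 4.3.3; eBayes with trend), with 1 model for the 7 libraries, no block, 2-sided p-values and Benjamini-Hochberg adjustment over 14305 genes at a threshold of 0.05. Fold changes are on that log2(RPKM + 0.1) scale. The fit and the recovery of library sizes were tested on simulated data. Other steps used Python 3.11.15 with numpy 2.4.6, pandas 2.3.3 and matplotlib 3.10.9. Gene positions, codons and overlaps came from GENCODE lifted to GRCh37, and promoters from RefSeq on GRCh38.p14.

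The members and lists were chosen with earlier results of these data known. Values in every library are given for the Sm genes, the 8 large factors and, of the other members, the 3 highest and 3 lowest in each index; of the other lists, genes past the threshold at either end are named. Alternatives covered the pseudocount, the filter, centring, a replicate block, each library left out, means for medians, and large factors of at least 500 codons.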

Additional observations from a re-analysis of the deposited data

How the results depend on the processing

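Pseudocounts of 0.01 and 1 changed no count of calls beyond 1.5 times. Without a filter, 18 members were higher and 5 lower in RA than TR, and 8 higher and 2 lower in TA than RA. A filter of 1 RPKM on every parameter left 3656 genes lower in RA of the 10825 tested. With each library centred on its median, 5066 genes were higher in RA than TR, and 2713 higher and 1404 lower in TA than RA; of members 0 were lower in either comparison and 21 were higher in TA, of other spliceosome genes 40 were higher and 4 lower in RA and 30 and 1 in TA, and of assembly genes 9 were higher and 1 lower in RA and 10 and 0 in TA.

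Differences between replicates 1 and 2 correlated across genes at -0.505 for RA with TA, 0.0848 for TR with RA and 0.00943 for TR with TA. These correlations cannot decide whether libraries of equal number share a culture. The paper's scheme has the cells divided between RNA-seq, GRO-seq and polysome isolation, but the sources do not say which libraries share a culture. With a replicate block, in which RA replicate 3 has no partner, 17 members were higher and 5 lower in RA than TR. In TA against RA, 1 member was higher and 1 lower (9 and 5 at an unadjusted p under 0.05). With the block, 109 genes were higher and 1387 lower in TA than RA, other spliceosome genes gave 0 and 1 (13 and 7 at an unadjusted p under 0.05) and assembly genes 0 and 0 (3 and 1), and 1 assembly gene was lower in RA. The block left the Sm minus large-factor difference at -0.04 for the stability index and -0.69 for the translation index.

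Over the 7 fits without 1 library, members higher in RA than TR ranged from 12 to 19 and lower from 2 to 6, and members higher in TA than RA from 1 to 12 and lower from 1 to 3. All genes ranged from 1845 to 2791 higher and 5423 to 6968 lower in RA, and from 198 to 1030 higher and 1803 to 4228 lower in TA. Other spliceosome genes ranged from 14 to 23 and 8 to 11 in RA, and from 0 to 15 and 2 to 5 in TA. Assembly genes gave 3 higher in each fit and 1 to 3 lower in RA, and ranged from 0 to 2 and 0 to 1 in TA. The lowest counts in TA came without TA replicate 1, and those of members in RA without TR replicate 2.

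The Sm minus large-factor difference in the stability index, -0.09, ranged from -0.38 to 0.18 over those fits, positive without TR replicate 2, and turned to 0.061 with means in place of medians and to 0.028 with all 12 members of at least 500 codons as large factors, an alternative chosen after seeing the data. In the translation index, -0.51, it ranged from -0.69 to -0.36 and stayed negative at -0.40 with means and -0.60 with the codon rule. The rule by RefSeq protein length was not run, as no protein table was at hand, and leaving out SNRPN gave no separate value because it was not tested.

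Among the indices of single members, sign changes fell only on those not past the threshold in the reported fit. Centring turned the stability indices of SNRNP25 (0.50), SNRNP48 (0.43), PRPF3 (0.31), SF3B4 (0.27) and U2AF2 (0.52), and the translation indices of SNRPD2 (0.050), SNRPE (0.34), SNRPF (0.36), SNRNP27 (0.028), SNRNP200 (0.30), PRPF8 (0.38), SF3B1 (0.35) and SF3B5 (0.036). Over the fits without 1 library, the stability index ranged from -0.079 (without TR replicate 1) to 0.28 for SNRPG, also negative without RA replicate 1 (-0.061), and from -0.55 to 0.028 (without RA replicate 2) for SNRNP25. The translation index ranged from -0.29 to 0.055 (without RA replicate 1) for SNRPF, from -0.23 to 0.030 (without RA replicate 1) for PRPF8, from -0.21 (without TA replicate 2) to 0.81 for SNRNP70, from -0.0017 (without RA replicate 2) to 0.17 for PRPF4, and from -0.067 (without TA replicate 2) to 0.35 for PRPF31, also negative without RA replicate 2 (-0.027). The cause of these shifts was not tested. Depth was lowest in TR, with 58 reads for SNRPG in the smallest library.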
